A study of Arabidopsis thaliana with 12 samples.

Results

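The transcripts described here were higher in xrn3-8 seedlings than in Col-0 seedlings before cordycepin, and much of that excess was gone 60 min after the drug. A probe set was taken when its mean log2 signal was at least 1 higher in xrn3-8 before cordycepin and when that difference was at least 0.8 smaller after it. Of 22746 probe sets, 87 met both conditions. A group of 13 of these, AT5G01700 and NRPD7 among them, was set aside by name, which left 74 members. A single gene is listed for 41 of these probe sets and several genes for 2, while 31 are not in the probe table used here and stay unnamed.

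Signals were measured on 12 Affymetrix arrays, 3 biological replicates in each of 4 groups of whole Arabidopsis thaliana seedlings aged 14 days. The groups were xrn3-8 after 60 min in 150 mg/l cordycepin, Col-0 (wild type) after the same treatment, untreated xrn3-8 and untreated Col-0. No mock treatment of 60 min appears among the labels, and the drug cannot be told apart from the time and handling. The labels do not say what the xrn3-8 allele does to XRN3, and XRN3 has no named probe set, so the genotype was not checked by its own transcript. All values are log2 signals deposited by the authors, already normalized between arrays.

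XRN3 is a nuclear exoribonuclease that digests RNA from its 5′ end. After a new transcript is cut at its poly(A) site, enzymes of this kind degrade the piece still attached to RNA polymerase, and the polymerase then leaves the DNA. Where this fails, the polymerase can run on into the next gene. Cordycepin is an adenosine analogue that ends growing RNA chains, so that during treatment little new RNA is made and existing RNA decays at its own rate.

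Within a group, arrays correlated at 0.995 to 0.998 over all probe sets. The median signal was 4.63 to 4.87, and the lower quartile, taken here as the edge of background, was 2.98 to 3.10. Green tissue was well represented: LHCB4.1, LHCB4.2 and RCA, which encode light-harvesting and Rubisco-activating proteins, had group means of 10.5 to 13.0. The root hair expansin gene EXPA7, the only measured root marker, lay at 3.15 to 3.62, and 3 pollen genes lay at 2.62 to 3.51. No flower or seed storage marker of those listed was measured, which here means having a probe set that lists that gene alone. Genes not measured in this sense may lie among the unnamed probe sets. In whole seedlings, fewer cells of a type and less RNA per cell cannot be told apart.

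The members were chosen by the xrn3-8 minus Col-0 difference before cordycepin and its shrinking, so the values in this paragraph are a description. The median member stood 0.34 above Col-0 in xrn3-8 after cordycepin and 1.57 above it before, and the median of the shrinking was -1.29. Before cordycepin, the difference ranged from 1.01 (AT2G22760) to 5.28, reached by a probe set unnamed here. After cordycepin it ranged from -0.55 to 1.18. It was still 1 or more for 8 members and below 0 for 10. All 74 members were called higher before cordycepin (background 14.3% of all probe sets). After it, 35 were still called higher (background 16.6%) and 2 were called lower (background 15.6%). The 3 arrays of xrn3-8 after cordycepin all exceeded those of Col-0 for 42 members (background 21.1%), lay below all of them for 4 (background 19.2%) and overlapped them for 28. A call here means an adjusted p under 0.05 in a limma model fitted to all probe sets. For members, these calls and overlaps rest on values that the rule used, so they carry no test.

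**Figure D1:**
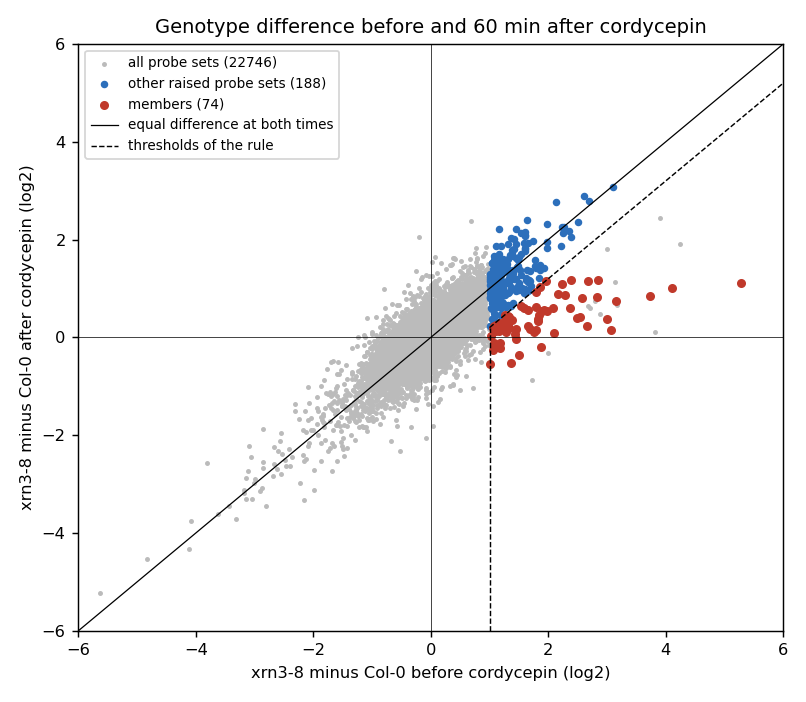
Log2 difference between xrn3-8 and Col-0 after cordycepin (vertical axis) against the same difference before it (horizontal axis), each point 1 probe set and the mean of 3 against 3 arrays. The 74 members (red) lie below the dashed line of the rule, the 188 other probe sets raised by 1 or more (blue) lie above it, and the 13 probe sets set aside by name are drawn in grey.

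Near the thresholds, the members shade into their neighbours. The member with the smallest excess before cordycepin was AT2G22760 (1.01), and AT1G06420 missed at 0.99 with a shrinking of -0.81. The member with the smallest shrinking was AT1G73600 (-0.80), and AT1G20120 missed at -0.74 with an excess of 1.08.

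The members reached these values in different ways. For 64 of 74, the signal in xrn3-8 was lower by 0.5 or more after cordycepin (background 9.65% of all probe sets). For 19, the signal in Col-0 was higher by 0.5 or more (background 8.41%). At a level of 1, the counts were 42 (background 3.74%) and 7 (background 0.536%). Put together, 51 members were lower by 0.5 or more in xrn3-8 while Col-0 moved by less than 0.5 (background 1.75%). In another 9, xrn3-8 was lower and Col-0 higher by 0.5 or more (background 0.0659%). In 9, Col-0 was higher by that much while xrn3-8 moved by less than 0.5 (background 5.31%). In 4 both genotypes were lower (background 7.83%), and in 1 both were higher (background 3.04%). The levels of 0.5 and 1 were chosen after the values were seen, and the rule bounds the difference between both changes, so these counts describe the members and carry no test. They also hold for the deposited scaling only. The median change of all probe sets, averaged over both genotypes, was 0.09 there. With arrays centred on Bacillus subtilis control probes it was -0.32.

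**Figure D2:**
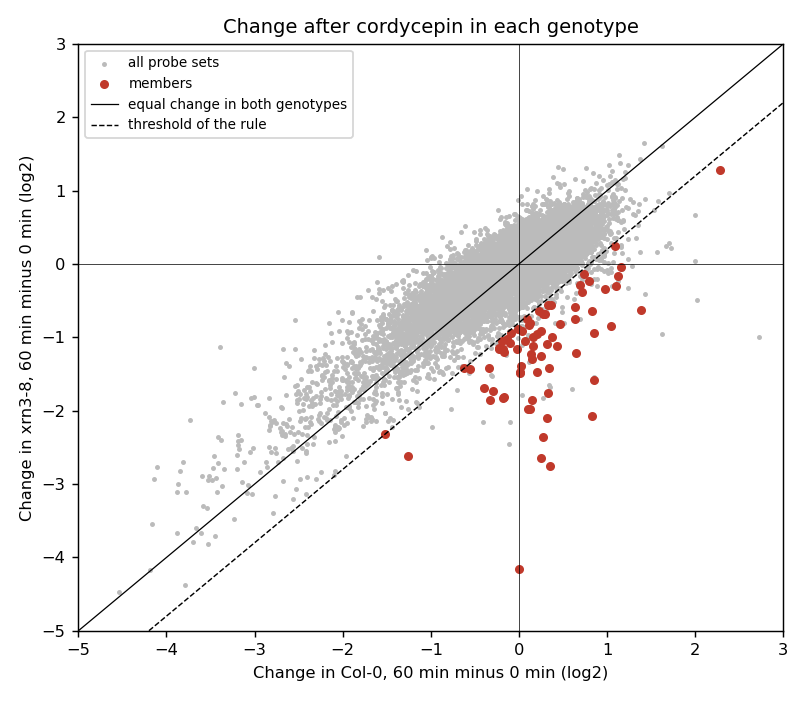
Log2 change after cordycepin (60 min minus 0 min) in xrn3-8 (vertical axis) against that in Col-0 (horizontal axis), with all probe sets in grey and the 74 members in red. Most members sit near 0 on the Col-0 axis and below -0.5 on the xrn3-8 axis, and a smaller number sit to the right, where the Col-0 signal was higher after cordycepin.

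The largest class lost signal in xrn3-8 while Col-0 stayed low. AT1G12600, of a nucleotide-sugar transporter family, had 4.27, 4.30 and 4.44 in xrn3-8 after cordycepin, against 3.58, 3.34 and 3.62 in Col-0. Its untreated signals were 6.23, 6.11 and 6.25 in xrn3-8, against 3.18, 3.41 and 3.49 in Col-0. The genotypes did not overlap at either time, but the gap was 0.82 ± 0.10 (SE, n = 3 arrays per group here and below) after cordycepin and 2.84 ± 0.10 before it. AT4G37445 had the largest measured excess before cordycepin among named members. It had 4.96, 5.04 and 5.54 in xrn3-8 after cordycepin, against 3.79, 4.12 and 4.10 in Col-0, and 6.54, 6.41 and 7.01 in xrn3-8 before it, against 3.92, 3.85 and 3.63 in Col-0. Its gap of 1.18 ± 0.16 after cordycepin, against 2.85 ± 0.16 before, was the largest measured one left among named members.

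AT4G27510 and AT2G44510 lost most of their excess. AT4G27510 had 3.47, 3.80 and 4.03 in xrn3-8 after cordycepin, against 3.34, 3.15 and 3.53 in Col-0, so that the genotypes overlapped. Before cordycepin it had 5.68, 5.72 and 5.83 in xrn3-8, against 3.13, 3.26 and 3.24 in Col-0. Its shrinking of -2.11 ± 0.17 was the strongest measured one among named members. AT2G44510, which encodes a protein related to the cell-cycle regulator BCCIP of animals, had 4.15, 4.38 and 4.14 in xrn3-8 after cordycepin, against 4.01, 3.73 and 3.75 in Col-0. Its untreated signals were 6.04, 5.97 and 5.94 in xrn3-8, against 3.53, 3.41 and 3.55 in Col-0. The arrays of xrn3-8 still lay above those of Col-0 after cordycepin, with a gap of 0.39 ± 0.09 between the means.

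Other members of this class followed the same course. For the gene MBAC1 of a mitochondrial carrier of basic amino acids, the gap was 0.89 after cordycepin and 2.17 before it. For AT3G52390, related to TatD DNases, it was 0.60 and 2.37, and for AT5G49350 0.87 and 2.28. AT1G03820 (1.09 and 2.24), AT1G70100 (0.33 and 1.82) and the kinesin-family gene AT4G24170 (0.93 and 1.79) stood in the same order. In each of these 6, the change in Col-0 was between -0.19 and 0.34 and the change in xrn3-8 between -1.48 and -0.99. AT3G23020, of a pentatricopeptide repeat family whose members mostly bind organelle RNA, lay after cordycepin below the edge of background in both genotypes. It had 2.51, 2.47 and 2.48 in xrn3-8 after cordycepin, against 2.39, 2.23 and 2.35 in Col-0. Before cordycepin it had 4.29, 4.01 and 4.23 in xrn3-8, against 2.79, 2.68 and 2.69 in Col-0.

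Col-0 signals at background bound how far a transcript can fall there. For 21 of 74 members Col-0 averaged less than the arrays' lower quartile at 1 or both times, and for 14 at both. Among named members these 14 include AT3G23020, AT4G24170, AT1G61860 of a protein kinase family, BHLH101 and the receptor-like kinase gene IKU2, which is known for its role in seed size. AT2G20625, described below, lay under that edge in untreated Col-0. For such genes the size of the excess before cordycepin is a lower bound, so their rank among the members is not settled. Over the 53 members with Col-0 above the lower quartile at both times, the median change was -1.12 in xrn3-8 and 0.21 in Col-0, against -1.11 and 0.21 over all 74.

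A smaller class lost signal in both genotypes. AT1G47400, of the IRON MAN family of short peptides that promote the iron-deficiency response, had 4.55, 4.16 and 4.15 in xrn3-8 after cordycepin, against 3.94, 3.39 and 3.92 in Col-0. Its untreated signals were 6.82, 7.25 and 6.64 in xrn3-8, against 4.83, 5.37 and 4.81 in Col-0. All 6 arrays after cordycepin were lower than all 6 before it. The change was -2.62 in xrn3-8 and -1.25 in Col-0. BHLH101, a transcription factor gene of the same iron response, belongs to the largest class, with -1.42 in xrn3-8 and -0.34 in Col-0, where it lay at background at both times. AT1G73600, of a family of methyltransferases for choline synthesis, had 4.94, 4.78 and 4.39 in xrn3-8 after cordycepin, against 4.37, 4.13 and 4.22 in Col-0. Before cordycepin it had 6.14, 6.77 and 5.46 in xrn3-8, against 4.93, 4.82 and 4.83 in Col-0. The untreated xrn3-8 arrays spread over more than 1 log2 unit there, and each lay above every Col-0 array. AT3G05510, of an acyltransferase family, changed by -1.44 in xrn3-8 and by -0.56 in Col-0. The fourth of this class is unnamed here.

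In a further class, the Col-0 signal was higher after cordycepin and that of xrn3-8 changed little. A higher signal here is relative to the other transcripts, since the arrays were normalized to each other. AT1G27900, of a family of DEAH-box RNA helicases, had 7.07, 7.02 and 7.03 in xrn3-8 after cordycepin, against 7.19, 7.08 and 7.21 in Col-0. Its untreated signals were 7.07, 7.12 and 7.43 in xrn3-8, against 6.22, 5.82 and 6.06 in Col-0. Only the untreated Col-0 arrays stood apart. AT4G36640, of the Sec14 family of lipid-transfer proteins, had 6.36, 6.34 and 6.34 in xrn3-8 after cordycepin, against 6.38, 6.61 and 6.42 in Col-0, and 6.12, 6.53 and 6.51 in xrn3-8 before it, against 5.27, 5.31 and 5.37 in Col-0. For AT1G29680 the values were 4.56, 4.94 and 4.47 in xrn3-8 after cordycepin, against 4.68, 4.23 and 4.39 in Col-0, and 4.36, 4.33 and 4.54 in xrn3-8 before it, against 3.15, 3.25 and 3.62 in Col-0. In all 3 genes the change in Col-0 was 1.09 to 1.15 and that in xrn3-8 -0.17 to 0.25. AT4G34400, a B3-family transcription factor gene (1.11 in Col-0, -0.30 in xrn3-8), AT5G54950 (0.97 and -0.34 in the same order) and the WD40-repeat gene AT5G45760 (0.70 and -0.29) behaved alike.

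**Figure D3:**
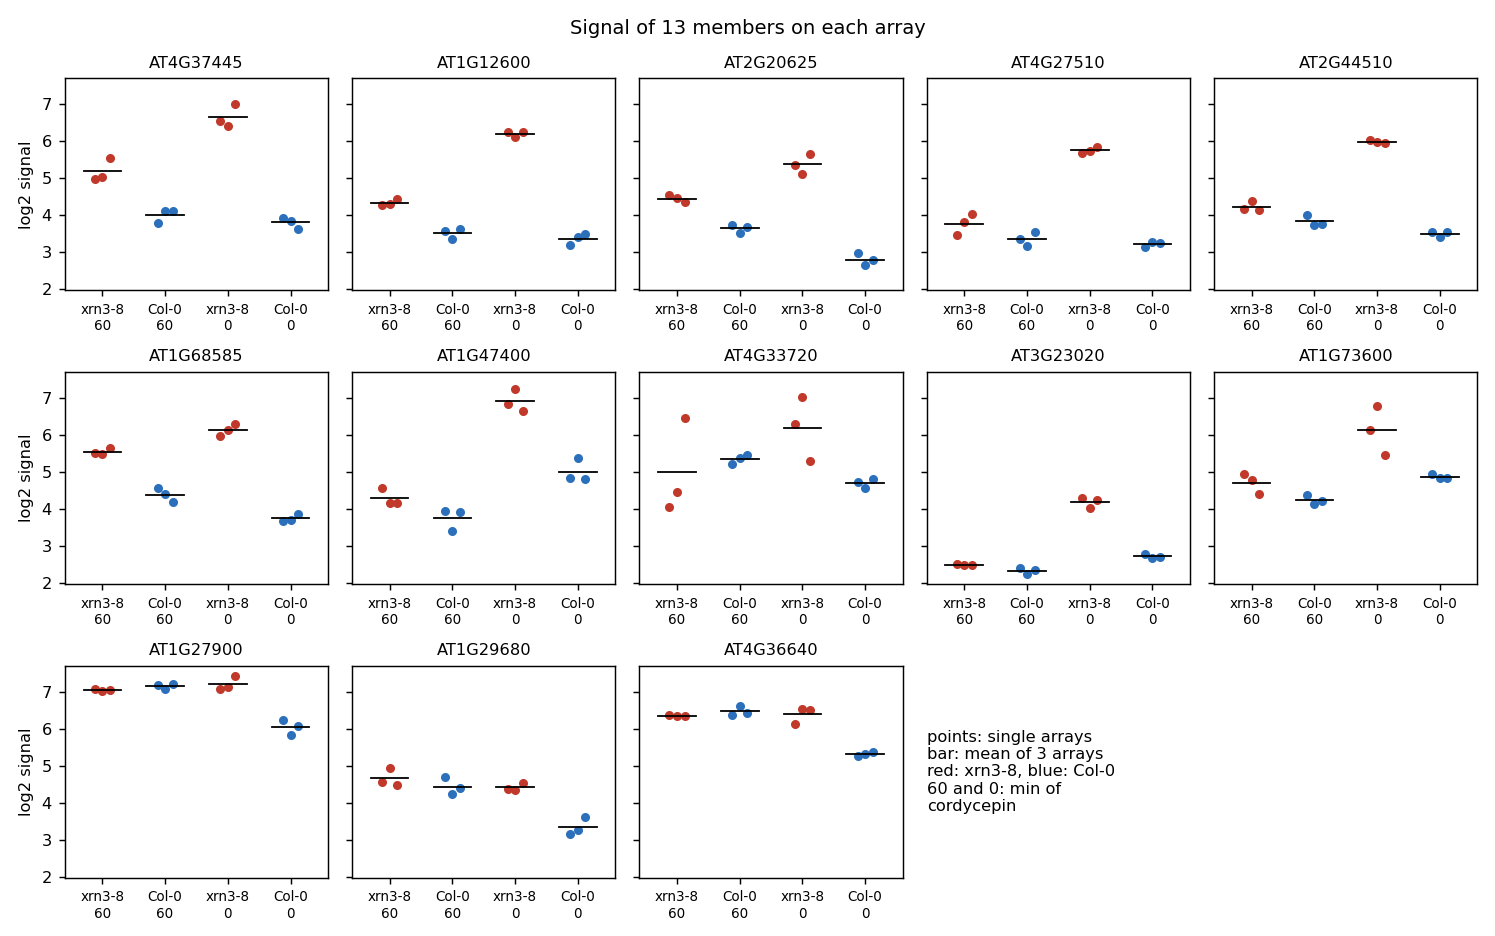
Log2 signal of 13 named members on each of the 12 arrays, in the order xrn3-8 and Col-0 at 60 min, then xrn3-8 and Col-0 at 0 min (red for xrn3-8, blue for Col-0, bars for means of 3 arrays). In the top row the untreated xrn3-8 arrays stand above the other groups, and in the bottom row the untreated Col-0 arrays stand below them.

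In a few members both genotypes moved toward each other. AT2G20625 had 4.53, 4.45 and 4.34 in xrn3-8 after cordycepin, against 3.74, 3.52 and 3.67 in Col-0. Before cordycepin it had 5.36, 5.12 and 5.65 in xrn3-8, against 2.97, 2.64 and 2.78 in Col-0. AT1G68585 had 5.51, 5.49 and 5.64 in xrn3-8 after cordycepin, against 4.57, 4.39 and 4.19 in Col-0, and 5.98, 6.14 and 6.29 in xrn3-8 before it, against 3.68, 3.71 and 3.85 in Col-0. The genotypes stayed apart at both times in both genes. AT4G33720, of the family of PR-1-like secreted proteins, had a wide spread: 4.06, 4.46 and 6.44 in xrn3-8 after cordycepin, against 5.20, 5.38 and 5.45 in Col-0. Its untreated signals were 6.28, 7.01 and 5.30 in xrn3-8, against 4.73, 4.55 and 4.81 in Col-0. Its shrinking of -1.86 ± 0.64 rests on xrn3-8 arrays that overlap the Col-0 arrays after cordycepin and spread widely at both times.

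The mean of the change in xrn3-8 and the change in Col-0 was not itself part of the rule. With equal groups its error is independent of both conditions, so each member's own mean change can be tested against 0. Its size is not independent: where Col-0 stays flat, the shrinking that the rule demands puts the mean change below 0. A fall called for such a member restates its shrinking and is no separate support. Where xrn3-8 stays flat, the same shrinking puts the mean change above 0, and a rise called there restates it too. The counts over the members are therefore a description, and nothing is read from how they stand against the background. Of 74 members, 53 (71.6%) fell after cordycepin by this mean (background 21.6% of all probe sets) and 10 rose (background 34.7%), while 11 were not called. The median was -0.50 over the members and 0.09 over all probe sets. Among the 188 other probe sets raised by 1 or more in xrn3-8 before cordycepin, 116 (61.7%) fell and 27 (14.4%) rose, with a median of -0.34. Before cordycepin the median member had a signal of 5.81 in xrn3-8 and 3.72 in Col-0, against 6.72 and 5.25 for the other raised probe sets in the same order.

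**Figure D4:**
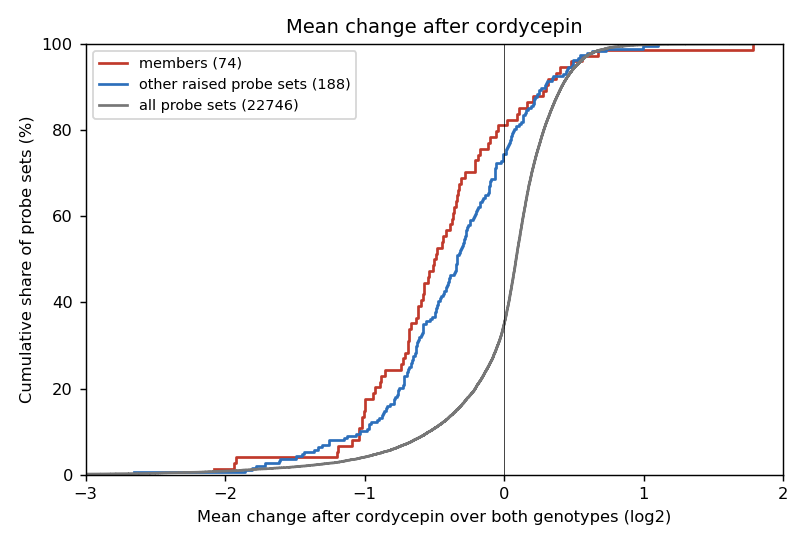
Cumulative share of probe sets (vertical axis, percent) by mean log2 change after cordycepin over both genotypes (horizontal axis) for the 74 members (red), the 188 other raised probe sets (blue) and all 22746 probe sets (grey). The red and blue curves lie to the left of the grey one, with medians of -0.50 and -0.34 against 0.09.

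The mean change of AT1G47400 was the lowest among named members (-1.94 ± 0.13, limma adjusted p = 2.30e-09), followed by AT3G23020 (-1.04 ± 0.06, adjusted p = 3.42e-10) and AT1G73600 (-1.02 ± 0.16, adjusted p = 3.48e-05). AT4G19520, of the TIR-NB-LRR class of immune receptors, fell by 1.02 ± 0.09 and BHLH101 by 0.88 ± 0.09. AT4G27510 (-0.92 ± 0.09), AT1G12600 (-0.85 ± 0.07), AT2G44510 (-0.71 ± 0.07) and AT4G37445 (-0.64 ± 0.11) fell as well. So did AT1G20410, of a pseudouridine synthase family (-0.59 ± 0.08), MBAC1 (-0.48 ± 0.06) and the pentatricopeptide repeat gene AT5G15980 (-0.39 ± 0.09). AT1G73090, AT4G01860 and AT2G22760, the last of the bHLH family of transcription factors, were called lower by smaller amounts (-0.37 to -0.21). In all, 29 of the 41 named members fell (background 21.6% of all probe sets), 6 rose (background 34.7%) and 6 were not called. For those whose Col-0 signal stayed flat, the fall restates the shrinking.

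Among the named members that rose, AT1G29680 led (0.67 ± 0.10, limma adjusted p = 2.90e-05), then AT4G36640 (0.56 ± 0.07, adjusted p = 6.28e-06) and AT1G27900 (0.48 ± 0.08, adjusted p = 4.95e-05). AT4G34400 (0.40 ± 0.09), AT5G54950 (0.32 ± 0.07) and AT5G45760 (0.20 ± 0.07) also rose. Those are the 6 named genes described above as higher in Col-0 after cordycepin. Their xrn3-8 signal moved by less than 0.5, so each rise largely restates the shrinking and is no separate support. AT2G20625 (-0.04 ± 0.09), AT1G68585 (0.02 ± 0.07), AT1G02260 (-0.18 ± 0.08) and AT2G24320 (0.09 ± 0.07) did not pass the test. Nor did AT4G33720 (-0.28 ± 0.32, limma adjusted p = 0.466), whose value hung on single xrn3-8 arrays after cordycepin: it was -0.05 without replicate 1 and -0.15 without replicate 2, and was called at -0.65 without replicate 3 (adjusted p = 0.0157). It was also called with hybridization controls (-0.51, adjusted p = 1.15e-05), and without replicate 2 of untreated xrn3-8 it was -0.08. When arrays were centred on Bacillus subtilis control probes instead, 2 members rose and 64 fell, and with hybridization controls 3 rose and 60 fell. With median centring 14 rose and 44 fell. With Bacillus subtilis controls AT1G29680 was still called (0.27, adjusted p = 0.0247), while AT4G36640 (0.15, adjusted p = 0.0736) and AT1G27900 were not. The sign turned there for AT4G34400, AT5G45760 and AT5G54950, so AT1G29680 alone of the 6 named genes was still called higher.

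Members unnamed here include the largest excess before cordycepin and the strongest shrinking. The 31 that are not in the probe table had a median excess of 1.78 before cordycepin, and their shrinking ranged from -4.16 to -0.81. By the mean change 23 of them fell (background 21.6% of all probe sets), 4 rose (background 34.7%) and 4 were not called, with a range of -2.08 to 1.78. The 11 named members outside the naming rule had an excess of 1.06 to 1.33 and a shrinking of -0.94 to -0.80.

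The named members lie on all 5 nuclear chromosomes. Of these 41, 12 are on chromosome 1 (29.3%, against 25.7% of all named genes) and 11 on chromosome 4 (26.8%, against 14.6%), with 6 on each of the others. None of the 26 measured genes next to a named member was itself a member, and the unnamed members were not placed. Neighbours follow the gene order of assembly TAIR10.1 in a RefSeq table without strand, so upstream and downstream genes were not separated.

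The study concerns transcription termination, where neighbouring genes matter. Of the 41 named members, 19 had a measured flanking gene, 26 such genes in all. The stronger of these had a median signal of 8.72 in untreated Col-0, against 4.94 for the 8386 named genes with a measured flanking gene. It was over 8 for 10 of the 19 (52.6%), against 12.4% of all. These shares are a description, with no test, since the members were chosen with results of these arrays known. Before cordycepin, 4 of the 26 flanking genes were higher in xrn3-8 (background 13.0% of named genes) and 6 were lower (background 15.8%), and their median difference was -0.03. None was higher by 1 or more. After cordycepin, 7 were higher in xrn3-8 (background 15.2%) and 8 were lower (background 13.9%). The difference itself changed upward for 5 (background 4.73%) and downward for 2 (background 2.94%).

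AT5G54950 lies between a pair of strongly expressed genes, with AT5G54940 at 11.95 and the pyruvate decarboxylase gene PDC2 at 9.68 in untreated Col-0, where it had 3.21 itself. Before cordycepin the member stood 1.06 higher in xrn3-8, while AT5G54940 was lower by 0.42 ± 0.07 (limma adjusted p = 3.42e-04) and PDC2 by 0.46 ± 0.08 (adjusted p = 3.89e-04). AT1G29680 (3.34) lies beside AT1G29670 of the GDSL lipase family (11.29, lower by 0.39 ± 0.08), and AT3G05510 (4.97) lies beside AT3G05500 (10.52, lower by 0.55 ± 0.08). AT2G20625 (2.80) lies beside PIA1, a protein phosphatase gene (9.82, lower by 0.40 ± 0.08). The rule puts the member higher, and these are the pairs whose neighbour with a signal over 8 was called lower in xrn3-8. Other neighbours over 8 were not called before cordycepin: AT1G68580 (-0.09), AT4G24160 (-0.04), AT1G02270 (0.11) and AT2G24330 (-0.10). AT2G44500 and BCAT4, also over 8, are given below.

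AT2G44510 (3.50) lies beside AT2G44500 (9.67), whose difference of -0.24 ± 0.10 did not pass the test (limma adjusted p = 0.0819). IKU2 (2.49) lies beside BCAT4, a gene of methionine-derived glucosinolate synthesis (9.21), and both were higher in xrn3-8, BCAT4 by 0.42 ± 0.09. AT1G68585 lies beside AT1G68580 (9.05), which lost signal after cordycepin in both genotypes (-2.32 in xrn3-8 and -2.65 in Col-0) while AT1G68585 changed by -0.59 and 0.64 in the same order. AT1G02270, beside AT1G02260, and AT2G24330, beside AT2G24320, were higher in xrn3-8 after cordycepin by 0.95 ± 0.10 and 0.83 ± 0.09, the reverse in time of the members' pattern.

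**Figure D5:**
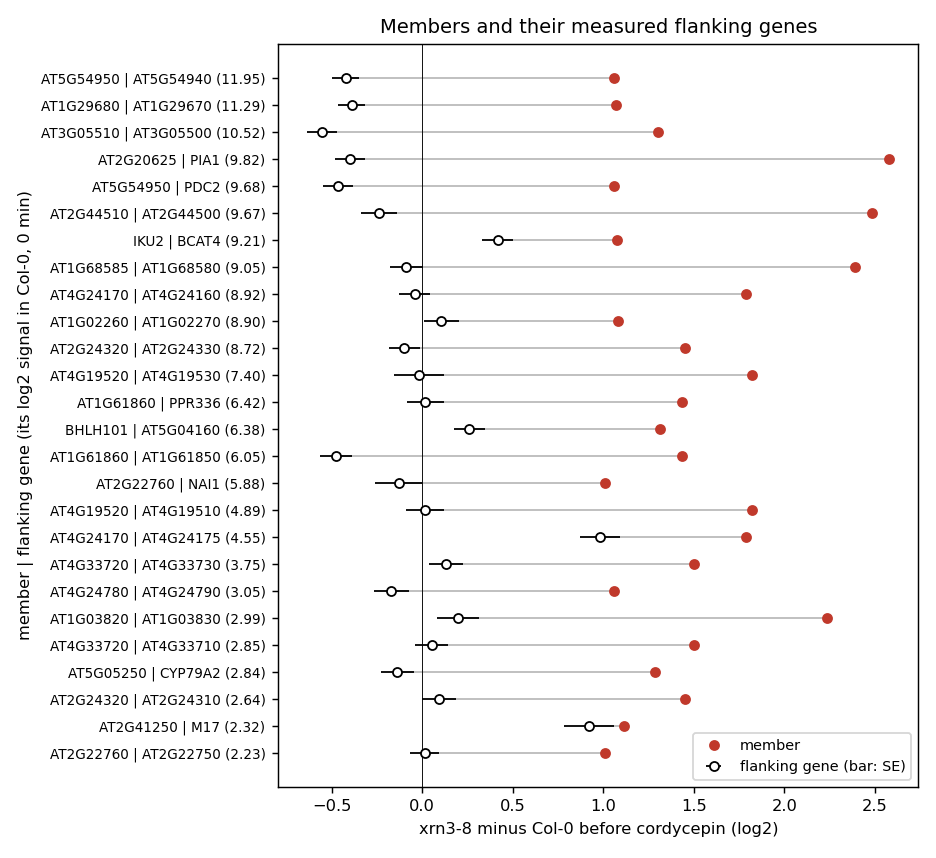
Log2 difference between xrn3-8 and Col-0 before cordycepin (horizontal axis) for members (red) and for each of their 26 measured flanking genes (open circles, bars for SE, 3 arrays per group), ordered by the flanking gene's signal in untreated Col-0. The members lie at 1 or more, where the rule puts them, while flanking genes lie between -0.55 and 0.98.

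Other genes of the pathway were looked at from short gene lists. For the exonuclease list, 0 of 4 genes had a probe set that lists them alone. Of 15 genes of the exosome, the complex that digests RNA from the 3′ end, and its helicases, 7 were measured. Before cordycepin, limma called none of them between the genotypes (0 also at an unadjusted p under 0.05). The background was 13.0% of named genes higher and 15.8% lower. After it, 1 of the 7, the helicase gene AT3G46960, was higher in xrn3-8 (0.37, limma adjusted p = 0.00944, background 15.2% of named genes). Of 19 cleavage and polyadenylation factors, 3 were measured and none was called before cordycepin (0 also unadjusted). After it, 2 of the 3, FY (0.35) and AT5G60940 (0.62), were higher in xrn3-8, against the same background of 15.2%. Lists this short were not tested as sets. None of the measured genes of these lists is a member.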

How the data were processed

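Total RNA from whole seedlings was labelled as biotin cRNA, per the labels. The authors deposited 1 normalized log2 signal per probe set and array. The submitters' processing notes name affy 1.48.0 and limma 3.26.9, while the background correction and normalization are steps not given in the sources used here. Of 22810 probe sets, 64 controls were removed. A single gene is given for 13513 of the others, 503 have several and 8730 are not in the probe table. Names were updated through gene identifiers for 13436, and for each of 13286 genes the probe set of highest mean was used in gene-level counts. No detection calls were used, and the number of arrays limits the precision.

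All probe sets were fitted together in limma 3.58.1 (R 4.3.3) with 4 group means, and p-values were Benjamini-Hochberg adjusted over all of them. The fit had 8 residual and 7.96 prior degrees of freedom. The fit was tested on simulated data. Members, gene lists and tests were chosen with earlier results of these data known. Named members are the 16 with the largest excess before cordycepin and the 14 others with the strongest shrinking, plus those whose flanking genes have the highest signals and those shown by array. Gene roles are general background. The replicate numbers did not pair the arrays: deviations of same-numbered arrays correlated at -0.09 to 0.18 over 18 pairs. Alternatives were other centring, quantile normalization, filters on dim and cross-hybridizing probe sets, a stricter threshold, a variance trend, array weights, a replicate block, leaving out each replicate, and protein-coding flanking genes.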

Additional observations from a re-analysis of the deposited data

Results flagged for a closer look

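These genes are neighbours of members or belong to the pathway lists, and each was picked out because its change after cordycepin differed between the genotypes in limma's test of that difference (xrn3-8 minus Col-0). The members themselves were chosen on this difference and are not among them. The groups of 3 arrays are small, and fits without single arrays are not given for these genes.

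Among neighbours, AT4G19530 had a difference of 0.94 (change of -1.28 in xrn3-8 and -2.22 in Col-0, adjusted p = 0.0074). AT2G24330 had 0.93 (-0.25 in xrn3-8 and -1.18 in Col-0, adjusted p = 1.80e-04). AT1G02270 had 0.85 (-0.72 in xrn3-8 and -1.56 in Col-0, adjusted p = 0.00126). PIA1 had 0.42 (-0.01 in xrn3-8 and -0.43 in Col-0, adjusted p = 0.0367). AT4G24160 had 0.41 (-0.02 in xrn3-8 and -0.43 in Col-0, adjusted p = 0.0481). These 5 kept more signal in xrn3-8. The other direction was seen for NAI1, a transcription factor gene of the endoplasmic reticulum body (-0.68, with -0.71 in xrn3-8 and -0.03 in Col-0, adjusted p = 0.0285). It was seen too for AT4G24175 (-0.58, with -0.24 in xrn3-8 and 0.34 in Col-0, adjusted p = 0.0282).

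Of the pathway lists, the exosome helicase gene AT3G46960 had a difference of 0.51 (0.38 in xrn3-8 and -0.13 in Col-0, adjusted p = 0.0387). It was 1 of 7 measured genes of its list (background 4.73% of named genes changed upward). FY, a polyadenylation factor gene and 1 of 3 measured on its list, had 0.49 (0.68 in xrn3-8 and 0.19 in Col-0, adjusted p = 0.0492).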

How the results depend on the processing

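The count of members that rose by the mean change was 10 as deposited, 2 with arrays centred on Bacillus subtilis controls and 3 with hybridization controls, 14 after median centring and 11 after quantile normalization, and the cause was not tested. The median of all probe sets moved with these scalings to -0.32 and -0.15, against 0.09 as deposited, and that of the members to -0.90 and -0.73, against -0.50. The count that fell was 64 and 60 under those scalings, 44 after median centring and 49 after quantile normalization, against 53. With Bacillus subtilis controls the sign turned for AT1G68585 (-0.38), AT4G34400 (-0.0025), AT5G45760 (-0.20, and -0.0262 with hybridization controls), AT2G24320 (-0.31) and AT5G54950 (-0.0875). Leaving out each replicate in turn gave 9 to 11 members that rose, 52 to 55 that fell, 69 to 76 probe sets kept by the rule, and 3 to 4 flanking genes higher and 6 to 7 lower before cordycepin. With protein-coding flanking genes alone, chosen after seeing the data, 7 of 31 were higher, against 4 of 26. A replicate block gave 10 members that rose and 54 that fell, and 7 of 12 arrays correlated best with their own number.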

Other observations

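The mirror image of the rule was counted over all probe sets as a description, since the same values choose the genes. Of 275 probe sets raised by 1 or more in xrn3-8 before cordycepin, 87 (31.6%) had a difference that was lower by 0.8 or more after it. Of 320 lowered by 1 or more, 27 (8.44%) had a difference that was higher by 0.8 or more. The median of those 27 was -0.49 after cordycepin and -1.53 before it, with a change of -0.15 in xrn3-8 and -1.16 in Col-0. By the mean change over both genotypes, 20 of the 27 fell (background 21.6% of all probe sets) and 2 rose (background 34.7%).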
